A study of Mus musculus with 6 samples.

Results

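The genes described here build and run the transport vesicles of the early secretory pathway: the COPII and COPI coats, the ARF cycle, KDEL and cargo receptors, p24 proteins, and the SNAREs and tethers between endoplasmic reticulum (ER) and Golgi. They were chosen by name, as genes of this machinery known as targets of CREB3-like factors in other tissues, and every array probe carrying one of the symbols was taken. Of 44 genes listed, 42 had a probe, 75 probes in all among 45281 probes and 30869 symbols on the array. Arf1 and Sec23b had no probe under their symbol. Kdelr1, Kdelr3, Sec24a, Copb1 and Arf4 had probes too dim to test, which left 37 genes with 60 probes.

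Livers came from male C57BL/6 mice fed normal chow and fasted for 24 h, with 1 array per mouse. The wild-type group held 3 mice, and the Creb3l3 KO group held 3 littermates lacking CREBH, the liver member of the CREB3 family. The fast, diet, sex and background were shared by both groups, so no fed liver was measured. The age of the mice, the allele and the cells in which Creb3l3 was deleted are not stated in the sources used. The comparison asks whether these genes depend on Creb3l3 in the fasted liver.

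COPII coats form vesicles that carry new proteins and lipoproteins out of the ER, and COPI coats form vesicles that return escaped ER proteins and receptors from the Golgi. CREB3-like factors are transcription factors held in the ER membrane, which are moved to the Golgi, cut there by proteases and released to the nucleus. In bone and cartilage, family members are known to raise coat genes, among them Sec23a, in cells that export large amounts of matrix. The hepatocyte is also a heavy exporter, of albumin, clotting factors and very low density lipoprotein.

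Because such factors bind short DNA elements near gene starts, the promoters of the genes were searched. RefSeq promoter windows of assembly GRCm38.p6, each with 250 bases before and 50 bases after a transcription start, were matched for 39 of the 44 genes, 45 windows in all. The unfolded protein response element TGACGTGG, on either strand, was found in 9 of the 45 windows (20%). Among all 32851 windows it was found in 222, which is 0.676%. By gene, 8 of the 39 held it (20.5%), against 193 of all 27025 genes (0.714%). The 2 windows of Arf1 overlap and hold the same element. The cAMP response element TGACGTCA was in 2 of the 45 windows (4.44%), against 1.79% of all windows. The element made of CCAAT, 9 bases of any kind and CCACG was in 0 of the 45, against 0.119% of all windows. The shorter TGACG, which lies inside both of the first elements, was in 23 of the 45 windows (51.1%), against 20.8% of all. The members were listed as targets of factors of this kind, so the shares describe the list, and a match of letters is not a bound site.

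The 8 genes with TGACGTGG were Arf1, Copb1, Copb2, Kdelr3, Sec16b, Sec23a, Sec24d and Stx5a, and the 2 with TGACGTCA were Cope and Gosr2. Shown first, because they were the tested genes with the lowest knockout minus wild-type differences, are the promoters of Sec16b (chr1:157506546-157506825, plus strand) and Sec23a (chr12:59011988-59012267, minus strand). The remaining lines give the surroundings of the element in other tested genes. Every sequence is from RefSeq, GRCm38.p6, read 5′ to 3′ along the gene and ending at most 30 bases past the start, with the element in capitals (CCACGTCA is TGACGTGG on the opposite strand).
Sec16b: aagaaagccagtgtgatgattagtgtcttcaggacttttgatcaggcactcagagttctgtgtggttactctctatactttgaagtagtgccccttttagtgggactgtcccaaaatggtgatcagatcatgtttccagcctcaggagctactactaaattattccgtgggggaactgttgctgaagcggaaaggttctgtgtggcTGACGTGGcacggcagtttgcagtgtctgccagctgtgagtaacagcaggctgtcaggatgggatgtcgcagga
Sec23a: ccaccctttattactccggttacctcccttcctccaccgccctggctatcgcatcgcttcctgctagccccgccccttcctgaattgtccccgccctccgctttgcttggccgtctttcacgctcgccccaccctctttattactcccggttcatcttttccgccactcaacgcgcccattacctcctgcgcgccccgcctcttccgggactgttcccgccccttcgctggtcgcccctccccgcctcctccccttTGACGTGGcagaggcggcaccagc
Copb2: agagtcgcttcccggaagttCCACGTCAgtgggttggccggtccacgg
Sec24d: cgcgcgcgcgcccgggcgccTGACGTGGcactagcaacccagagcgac
Stx5a: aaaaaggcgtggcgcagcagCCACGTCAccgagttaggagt
Cope: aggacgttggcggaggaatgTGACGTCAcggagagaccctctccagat
Gosr2: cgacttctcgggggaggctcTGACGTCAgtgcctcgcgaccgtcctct
Counted from the transcription start as 0, the element began at -44 in Sec16b, at 6 in Sec23a, at -7 in Copb2 and at -26 in Sec24d. Stx5a held it at 9 and again at 39. The cAMP response element began at -210 in Cope and at -224 in Gosr2.

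The short stretches lie at chr9:98563704-98563751 (Copb2, plus strand), chr3:123267450-123267497 (Sec24d, plus), chr19:8741413-8741453 (Stx5a, plus), chr8:70302537-70302584 (Cope, plus) and chr11:103697920-103697967 (Gosr2, minus).

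The arrays differed in brightness, and knockout replicate 3 stood apart from the rest. Its mean deposited signal was 87.3, against 149 in knockout replicate 1 and 219 to 252 on the other 4 arrays, and its normalized profile correlated at 0.738 to 0.752 with the others, which correlated at 0.964 to 0.991 among themselves. It detected 18 of the 75 probes of these genes, against 52 on knockout replicate 1 and 60 on each other array. Values below are therefore from 5 arrays, 3 wild type and 2 knockout, with the fit of all 6 beside them. The Creb3l3 probe read 1201, 949 and 929 in the wild type and 148, 283 and 87.9 in the knockout, and fell by 2.32 ± 0.15 (log2, SE; 5 arrays, limma adjusted p = 0.00271). The place of that probe relative to the deleted part was not given in the sources used here. Of 12 hepatocyte markers, 10 were detected on all 5 arrays. The mean normalized log2 signal of the 12 was 11.5 to 11.6 in the wild type and 11.4 on both knockout arrays.

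**Figure D1:**
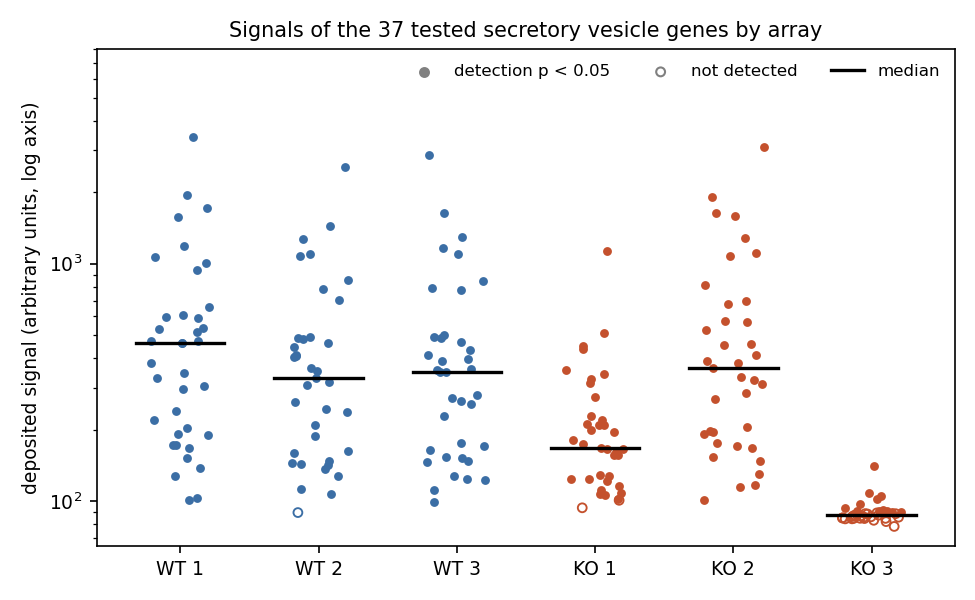
Deposited signal (arbitrary units, log axis) of the probe that stands for each of the 37 tested genes on each array, filled where detected, with the median as a line. The medians were 463, 332 and 350 on the wild-type arrays and 168, 363 and 87.4 on knockout arrays 1, 2 and 3, and knockout array 3 detected 13 of the 37.

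No gene of the vesicle machinery passed the test in the liver without Creb3l3. By limma, at an adjusted p under 0.05, 0 of 37 were higher and 0 lower, where 0.0671% of all 10432 tested genes were called higher and 0.268% were called lower. Without adjustment, at an unadjusted p under 0.05, 4 of the 37 (10.8%) stood out, Preb and Tmed3 above the wild type and Sec16b and Sec23a below it, against 11.9% of all tested genes (4.84% higher and 7.09% lower), a share near the background. The smallest adjusted p was 0.321, for Tmed3. Differences (knockout minus wild type, log2) ran from -0.49 to 0.55 with a median of -0.04, and the median over all tested genes was -0.02. Of the 37 differences, 24 were below 0 and 13 above, and 52.7% of all tested genes were below 0.

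The 5 arrays set a limit on how large a change in normalized signal could be. The 95% interval of each of the 37 differences lay within 1 log2 unit of 0, as it did for 87.7% of all tested genes. This excludes a 2-fold change of the normalized signal in these arrays under this normalization. The widest reach was 1.9-fold downward, for Copg, and 1.93-fold upward, for Tmed3. For 23 of the 37 (62.2%, against 39.7% of all) the interval also excluded a 1.5-fold change. These limits rest on the arrays used and on quantile normalization: 14 of 37 intervals excluded a 2-fold change with all 6 arrays (37.8%, against 35.2% of all genes) and 1 of 37 with median scaling. In whole liver, fewer cells of a type and less RNA per cell cannot be told apart.

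**Figure D2:**
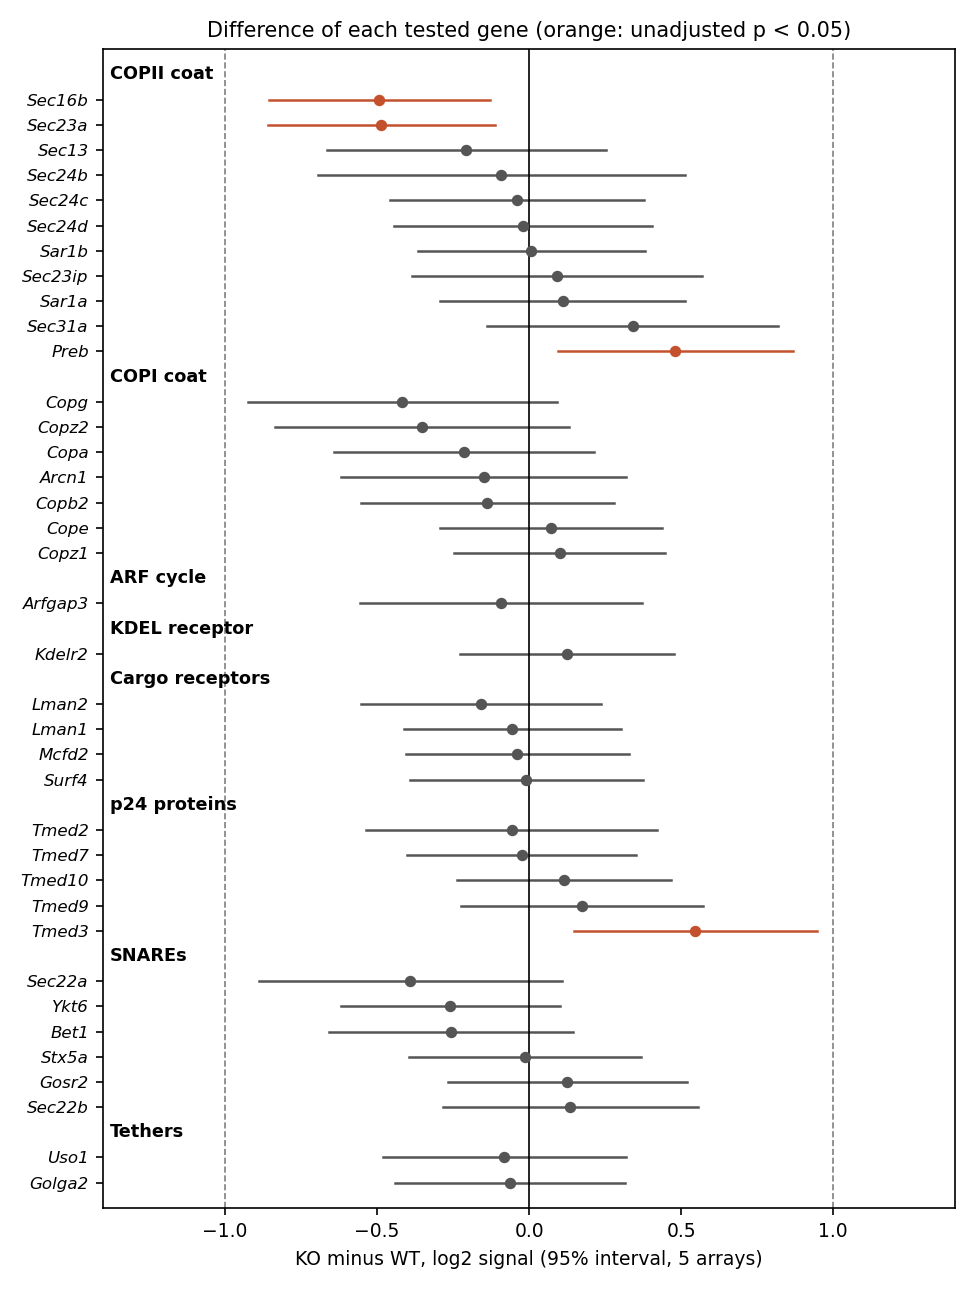
Difference between 2 knockout and 3 wild-type arrays (log2 signal) for each of the 37 tested genes by role, with its 95% interval; dashed lines mark a 2-fold change. All intervals lie inside the dashed lines, and Sec16b, Sec23a, Preb and Tmed3 (orange) have intervals that leave out 0, with 0 genes passing after adjustment.

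COPII genes included 3 of the 4 with an unadjusted limma p under 0.05, a threshold that 11.9% of all tested genes reached. They did not lie on one side. Among 11 tested COPII genes, 5 were above and 6 below the wild type, and 0 passed. The cycle starts at the ER membrane, where PREB, the exchange factor, loads the small GTPase SAR1 with GTP. The brightest Preb probe had normalized log2 signals of 8.61, 8.38 and 8.59 in the wild type and 9.12 and 8.90 on knockout arrays 1 and 2 (deposited signals 591, 410 and 468, then 274 and 678, with 86 on knockout array 3). Both knockout values were above all 3 wild-type values. The difference was 0.48 ± 0.17 (log2, SE; limma adjusted p = 0.355), with an interval of 0.09 to 0.87. Another Preb probe differed by 0.24 and a dim one by -0.27, so the probes of the gene were on both sides of 0. The fit of all 6 arrays gave -0.87 ± 1.10 (SE) for the brightest, which knockout array 3 did not detect.

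Sar1a and Sar1b encode the SAR1 GTPases, of which SAR1B is needed for lipoprotein export. Sar1a differed by 0.11 and Sar1b by 0.01. The interval of Sar1b was among those that excluded a 1.5-fold change. Its deposited signals were 3431, 2549 and 2863 in the wild type and 1136 and 3100 in knockout arrays 1 and 2, which overlapped.

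SEC16B is a scaffold of ER exit sites, the places where COPII vesicles bud. Its normalized log2 signals were 8.65, 8.68 and 8.67 in the wild type and 8.28 and 8.07 in the knockout. The wild-type values had an SD of 0.01, and both knockout values were below them. The deposited signals were 608, 491 and 491, against 195, 414 and 84.7 on knockout arrays 1, 2 and 3. The difference was -0.49 ± 0.16 (SE), that is 1.41-fold lower, with an interval of -0.86 to -0.13 and a limma adjusted p of 0.324. With all 6 arrays it was -1.65, where knockout array 3 did not detect the probe.

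SEC23A forms the inner COPII coat with a SEC24 protein and speeds GTP hydrolysis by SAR1. Its normalized log2 signals were 7.01, 7.07 and 7.26 in the wild type and 6.67 and 6.58 in the knockout. The groups did not overlap, and both knockout arrays were low. Deposited signals were 240, 209 and 228, against 124, 195 and 84.8. The difference was -0.49 ± 0.16 (SE) with an interval of -0.86 to -0.11 (limma adjusted p = 0.337). With all 6 arrays it was -1.13, where knockout array 3 did not detect the probe. Sec16b and Sec23a, the lowest of the 37, are the genes whose longer promoter stretches with TGACGTGG are printed above.

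The cargo-binding SEC24 proteins sat near the wild type on average. Sec24b differed by -0.09, Sec24c by -0.04 and Sec24d by -0.02, while Sec24a was detected on 0 of the 5 arrays, at signals of 84.8 to 94.3. Sec24b had the widest gap between the knockout mice of all 37 genes, at -0.55 in replicate 1 and 0.37 in replicate 2, each against the wild-type mean. The outer cage is made of SEC13 and SEC31A. Sec13 differed by -0.21. Sec31a differed by 0.34, with 0.64 in knockout replicate 1 and 0.04 in replicate 2, so that its higher mean came from 1 mouse. Sec23ip, which encodes a partner of SEC23, differed by 0.09.

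**Figure D3:**
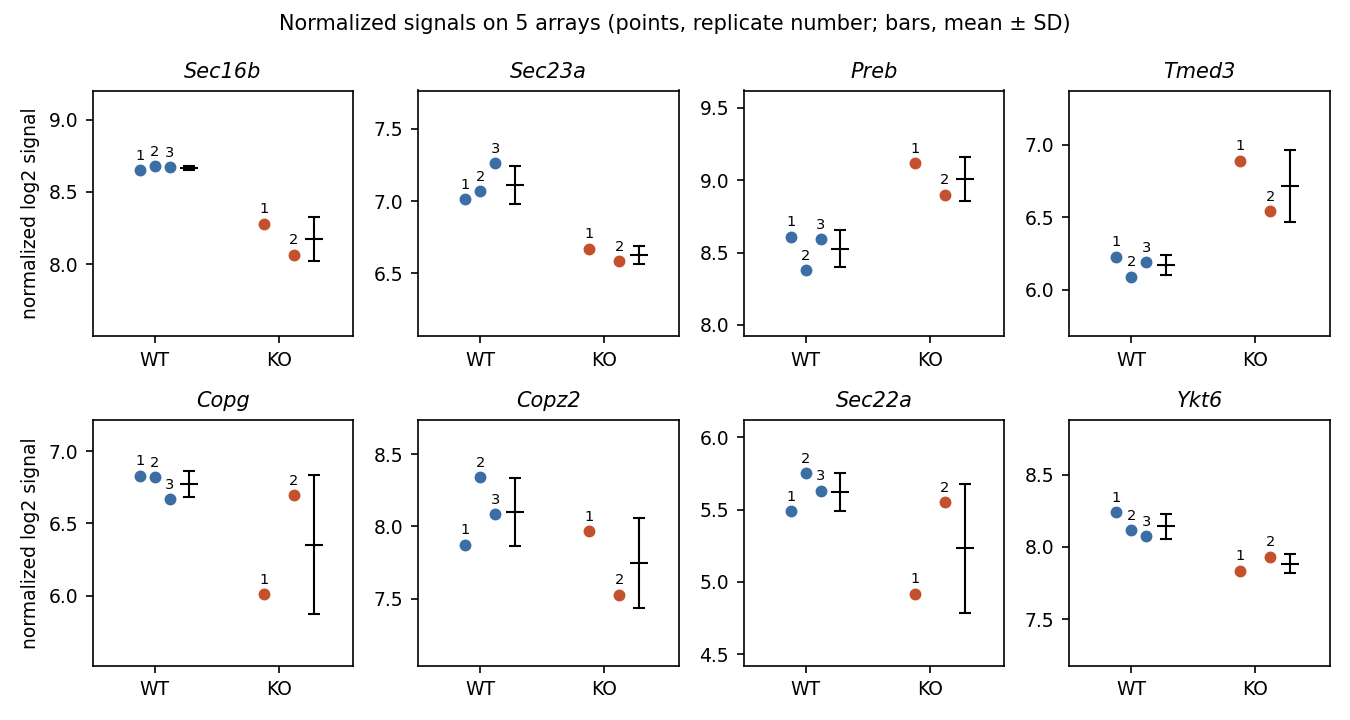
Normalized log2 signal of 8 genes on 3 wild-type and 2 knockout arrays, points labelled with the replicate number and bars giving the mean ± SD; all panels span the same range. Groups do not overlap for Sec16b, Sec23a, Preb, Tmed3 and Ykt6, while Copg and Sec22a are low on knockout array 1 alone.

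COPI coat genes showed a median difference of -0.15, with 5 of the 7 tested below the wild type, 2 above and 0 past the test. Copg (now Copg1), the gamma subunit, had normalized log2 signals of 6.83, 6.82 and 6.67 in the wild type and 6.01 and 6.70 on knockout arrays 1 and 2. Only knockout replicate 1 was low, and replicate 2 lay within the wild-type range. The difference was -0.42 ± 0.22 (SE; limma adjusted p = 0.483), and its other 2 tested probes differed by -0.03 and 0.16.

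Copz2, a zeta subunit found beside Copz1, had 4 tested probes, each below the wild type. Its brightest probe had deposited signals of 383, 403 and 350 in the wild type and 174, 312 and 91.5 in the knockout, and normalized log2 signals of 7.87, 8.34 and 8.08 against 7.97 and 7.53. The groups overlapped for this probe, which differed by -0.35 ± 0.21 (SE; limma adjusted p = 0.518). The other 3 differed by -0.51, -0.07 and -0.64, and 2 of them had an unadjusted p under 0.05. Copz1 differed by 0.10, with both knockout values above the wild type.

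The remaining COPI subunits had smaller differences. Copa differed by -0.22, Copb2 by -0.14 and Arcn1, the delta subunit, by -0.15, while Cope, which holds the cAMP response element shown above, differed by 0.07. Copb1 was detected on 2 of the 5 arrays and was not tested.

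ARF GTPases recruit the COPI coat and ARFGAP3 switches them off. Arfgap3 was the 1 tested gene of this group and was dim, at 103, 89.6 and 99.1 in the wild type and 93.8 and 101 on knockout arrays 1 and 2. Detected on 3 of these 5 arrays, it differed by -0.09 (limma adjusted p = 0.87). Arf4 was detected on 0 of the 5.

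KDEL receptors return soluble ER residents, such as chaperones, in COPI vesicles. Kdelr2 had normalized log2 signals of 8.46, 8.57 and 8.47 in the wild type and 8.63 and 8.62 in the knockout (deposited signals 537, 462 and 433, then 219, 576 and 85.1). Both knockout values were just above the wild type, by 0.12 ± 0.15 (SE; limma adjusted p = 0.76). With all 6 arrays the difference was -1.17 ± 1.06 (SE), where knockout array 3 did not detect the probe. Kdelr1 and Kdelr3 were each detected on 0 of the 5 arrays, at signals from 81.8 to 98.3.

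The 4 cargo receptors were all tested, all lay a little below the wild type and 0 passed. LMAN1 with its cofactor MCFD2 carries clotting factors out of the ER. Lman1 had deposited signals of 657, 482 and 502 in the wild type and 228, 569 and 84.3 in the knockout, and differed by -0.06. Mcfd2 differed by -0.04. Both differences were smaller than the SE of Lman1, 0.15.

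Surf4 encodes a receptor that helps lipoprotein leave the hepatocyte ER, and it differed by -0.01. Lman2, a lectin of the same family as LMAN1, had the largest shift of the 4, at -0.16 ± 0.17 (SE; limma adjusted p = 0.726). Its deposited signals were 474, 332 and 358 in the wild type and 181, 363 and 90.2 in the knockout.

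Among the p24 proteins, which ride both coats and bind cargo, 3 of 5 were above the wild type and 0 passed. Tmed3 had the highest difference of the 37 genes. Its normalized log2 signals were 6.23, 6.09 and 6.19 in the wild type and 6.89 and 6.54 in the knockout, and its deposited signals were 168, 142 and 146, then 129, 192 and 90.1. Both knockout values were above all wild-type values. The difference was 0.55 ± 0.17 (SE), 1.46-fold, with an interval of 0.15 to 0.95 (limma adjusted p = 0.321).

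A second Tmed3 probe differed by 0.37 ± 0.16, and with all 6 arrays the first gave 0.77, so the direction was the same in each. The 6-array fit is not separate evidence. It holds the same 5 arrays and knockout array 3, where the probe read 90.1, near background. With median scaling the difference of Tmed3 was 0.0037, when the median of all tested genes was -0.44. Tmed9 had deposited signals of 1723, 1076 and 1166 in the wild type and 511, 1642 and 106 in the knockout. It differed by 0.17 (limma adjusted p = 0.703) on its bright probe and by 0.49 on a dim one. Tmed2, Tmed7 and Tmed10 differed by -0.06, -0.03 and 0.11.

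SNAREs fuse the vesicle with its target membrane, and 0 of the 6 tested genes grouped here under SNAREs passed. Sec22a had normalized log2 signals of 5.49, 5.75 and 5.63 in the wild type and 4.92 and 5.55 in the knockout. The low value was again that of knockout replicate 1 alone. Deposited signals were 128, 127 and 123 in the wild type and 100.9, 130.5 and 85 in the knockout. The probe was not detected on knockout arrays 1 and 3 (detection p 0.0513 and 0.324). Fits below in which Sec22a is lower lean on these background readings. The difference was -0.39 ± 0.22 (SE; limma adjusted p = 0.495).

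Ykt6 had normalized log2 signals of 8.24, 8.12 and 8.08 in the wild type and 7.84 and 7.93 in the knockout, with no overlap. It differed by -0.26 ± 0.16 (SE; limma adjusted p = 0.523), and its second probe by -0.10. Bet1 differed by -0.26, Sec22b by 0.14, Gosr2 by 0.13 and Stx5a by -0.01. Stx5a, the Golgi syntaxin with the element at a pair of places in its promoter, thus lay next to the wild type.

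The tethers hold arriving vesicles at the Golgi before fusion. Uso1 differed by -0.08, with deposited signals of 203, 163 and 171 in the wild type and 124, 176 and 90.7 in the knockout. Golga2 differed by -0.06 on its brightest probe, with normalized log2 signals of 5.98, 5.98 and 5.75 against 5.78 and 5.90, which overlapped. Its 4 tested probes were all below 0 but spread by 0.83. The lowest, singled out after its values were seen, had deposited signals of 123, 122 and 120 in the wild type and 89.3, 112 and 78.5 in the knockout, and was detected on 1 of knockout arrays 1 and 2. That probe differed by -0.86 ± 0.25 (SE; limma adjusted p = 0.276).

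Different probes of 1 gene often gave different values. Of 13 genes with more than 1 tested probe, 7 had all probes on one side of 0 and 6 on both sides, and the median range between probes of a gene was 0.23. Of the 60 probes, 58 had an interval within 1 log2 unit of 0, and by limma 0 passed.

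**Figure D4:**
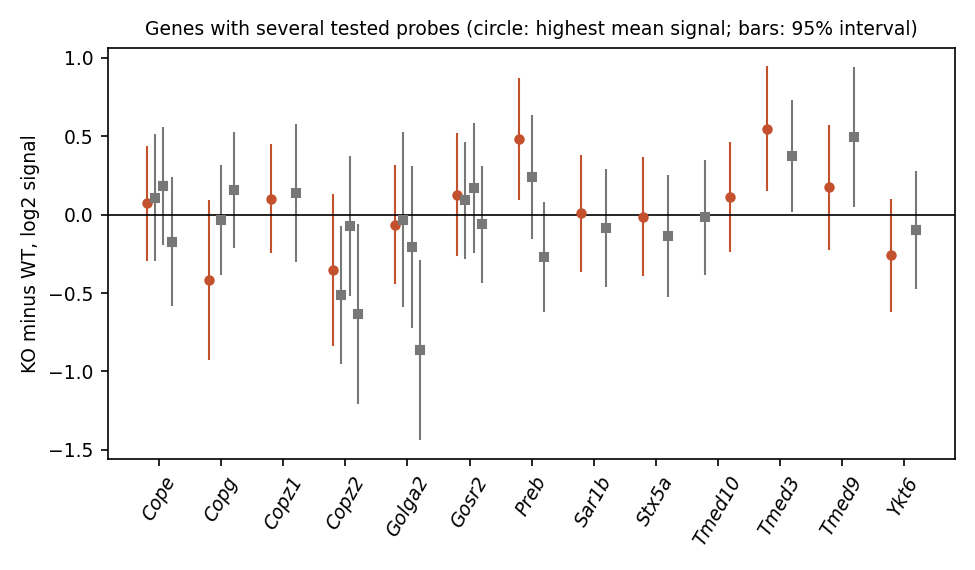
Knockout minus wild-type difference (log2 signal, 5 arrays, bars 95% interval) of every tested probe of the 13 genes with several, with the circle marking the probe of highest mean signal. All probes of Tmed3 and Tmed9 lie above 0 and all of Copz2, Golga2, Stx5a and Ykt6 below it, while those of Preb, Copg, Cope and Gosr2 lie on both sides.

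The share of genes standing clear of the wild type was no higher than on the rest of the array. The knockout values did not overlap those of the wild type for 8 of the 37: Preb, Copz1, Kdelr2, Tmed3 and Tmed10 were higher (13.5%, against 13.8% of all tested genes) and Sec16b, Sec23a and Ykt6 were lower (8.11%, against 15.5%). A difference under 0.5 log2 in size was found for 36 of the 37 (97.3%), with Tmed3 as the exception, and for 89.6% of all genes.

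**Figure D5:**
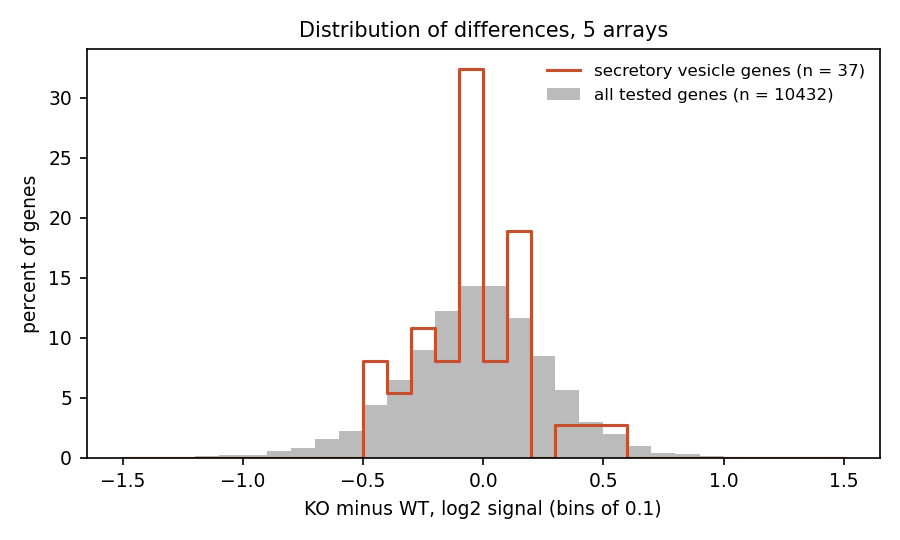
Share of genes (percent) by knockout minus wild-type difference (log2 signal, bins of 0.1, 5 arrays) for the 37 vesicle genes (line) and all 10432 tested genes (bars). The vesicle genes lie between -0.49 and 0.55, and the bin from -0.1 to 0 is the fullest.

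The median gap between the 2 knockout mice was 0.26 over the 37 genes. Set alone against the wild type, knockout replicate 1 had 5 of 36 past a limma adjusted p under 0.05, with Preb, Sec31a and Tmed3 higher and Copg and Sec22a lower, where 15.9% of all tested genes passed. Knockout replicate 2 alone had 0 of 37, against 0.311% of all, and 4 of 37 at an unadjusted p under 0.05, against 12.2%. A single array is taken here to vary like the wild-type arrays. With all 6 arrays, limma called 0 higher and 0 lower, as it did among all 10554 genes (0%). At an unadjusted p under 0.05 it had 1 higher, Tmed3, and 0 lower, against 0.625% and 3.02% of all, with a median of -0.38 over the 37 and of -0.25 over all, and 29 of the 37 below 0, against 70.6%. When each of the 6 arrays was weighted by its quality, Sec31a and Tmed3 were called higher and Copg and Sec22a lower, against 7.29% and 11.5% of all genes.

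Genes around the listed machinery were described from a list of 120 others of the secretory pathway, from translocon to golgins. Of the 96 tested, by limma 0 rose and 0 fell, where 0.0671% and 0.268% of all tested genes did. At an unadjusted p under 0.05, 2 of the 96 were higher and 6 lower, and the median was 0.01. Among all tested genes, 4.84% were higher and 7.09% lower at that threshold. Tmed4, a further p24 gene, was the lowest by p, with deposited signals of 1133, 933 and 972 in the wild type and 268, 680 and 88.9 in the knockout. Tmed4 differed by -0.72 ± 0.16 (SE; limma adjusted p = 0.159), and on its other tested probes by -0.81, -0.79 and -0.78. It passed without background correction (-0.63, adjusted p = 0.0229), with a trended and robust variance (adjusted p = 0.0369) and in the authors' value table (adjusted p = 0.0251).

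Mia3, which encodes TANGO1, an ER exit site receptor for collagen and lipoprotein, differed by -0.67 (limma adjusted p = 0.219). Its other tested probes differed by -0.19, where the groups overlapped, and by -0.43. Rab1, the GTPase of vesicles bound for the Golgi, differed by -0.64 (adjusted p = 0.226). Gbf1, which activates ARF, and Copg2, the second gamma subunit of COPI, differed by -0.58 and -0.63. At the entry to the ER, Srprb of the signal recognition particle receptor differed by 0.51 and Ssr1 by 0.48. With all 6 arrays weighted by quality, limma called 3 of the 96 higher and 9 lower, against 7.29% and 11.5% of all genes, among them Tmed4 (adjusted p = 0.0123), Mia3 (0.0196), Rab1 (0.0156), Gbf1 (0.00792) and Copg2 (0.00746) lower and Srprb (0.0246) higher. Of 19 tested chaperone and unfolded protein response genes, 0 passed by limma and the median was -0.13. An unadjusted p under 0.05 was reached by 1 gene above the wild type, Ddit3, a stress factor (0.59). Below the wild type it was reached by 2, P4hb, a disulfide isomerase (-0.51), and Edem1, of ER degradation (-0.74). The shares of all tested genes were 4.84% above and 7.09% below.

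The other CREB3 family genes were also at hand: Creb3 differed by -0.16 and Creb3l2, dim, by -0.05, while Creb3l1 and Creb3l4 were too dim to test. The promoter element was set against the differences after the matches were known. All 5 tested vesicle genes with TGACGTGG lay below the wild type, from -0.49 to -0.01 with a median of -0.14. Among all 55 tested genes with the element, 31 were below 0, 0 were called, and the median was -0.01, as it was among those without it.

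Marker lists of other cells differed in their direction. Of 12 Kupffer cell markers, 10 were tested and 9 were above 0, where 52.7% of all tested genes were below 0. At an unadjusted p under 0.05, 2 were higher (Emr1 and Marco), against 4.84% of all tested genes. The 11 with a probe had a mean log2 signal of 6.80 to 6.97 in the wild type. On knockout arrays 1 and 2 that mean was 7.09 and 7.22. Endothelial markers ran from 6.75 to 6.82 and stood at 6.83 and 6.96. The 7 cholangiocyte markers with a probe had a mean of 5.37 to 5.52, then 5.78 and 5.88, but Tff3 alone was called higher, by 2.55. Without Tff3 the mean was 5.48 to 5.62, then 5.54 and 5.61, and Krt19, Krt7 and Cldn4 were detected on none of the 5 arrays. Stellate markers overlapped the wild type on knockout array 1 (5.73 to 5.82, then 5.77 and 5.86), as plasma and B cell markers did on knockout array 2 (4.99 to 5.13, then 5.42 and 5.09). T and NK cell markers ran from 4.38 to 4.45 and stood at 4.49 and 4.53. Erythroid markers, at 8.02 to 8.30, stood at 7.71 and 8.19. Pancreatic acinar markers, at 4.995 to 5.098, stood at 5.23 and 4.98. Stellate markers were detected on all 5 arrays for 2 of 9 genes, plasma and B cell markers for 1 of 6. For T and NK cell markers it was 1 of 8 and for acinar markers 2 of 7, with 4 of each detected on none. The means of these lists thus rest largely on probes not detected on every array. The part of these cells in the values of Preb, Tmed3, Sec16b and Sec23a was not tested.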

How the data were processed

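Total RNA of each liver was amplified to biotinylated cRNA and hybridised to an Illumina WG-6 array, per the labels' protocols. The deposited array tables give an intensity per probe on a linear scale, not normalized, and a detection p-value per probe, which per the submitters' processing notes come from BeadStudio 3. The authors' value table, also intensity, was used as an alternative. Its columns for wild-type replicates 2 and 3 matched each other's arrays, and its normalization was not given in the sources used here.

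Signals were processed with limma 3.58.1 (R 4.3.3): normexp, taking negative controls from the detection p-values (offset 16), quantile normalization, log2. Probes detected (p under 0.05) on 3 or more arrays were tested, 14345 for 5 arrays and 14494 for 6, with lmFit and eBayes on genotype, two-sided, Benjamini-Hochberg over all tested probes, and calls at 0.05. The probe with the highest mean signal stood for a gene. Knockout replicate 3 was left out, a choice made after its signals were seen, and each set was normalized by itself. The number of arrays limits the precision, and p-values measure the spread between these mice.

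The members and lists were chosen with earlier results of these data known. Named with values were the 2 members of each role with the smallest p, other members by their difference, and up to 3 genes of each other list. The limma fit was tested on simulated log2 signals with the same spread for all probes. Background correction, normalization and the detection filter were not part of that test. Alternatives covered background correction, normalization, filter, variance model, array weights, the value table, a replicate block and leaving out each mouse. The mice share replicate numbers. Without knockout replicate 3, deviations from the group means correlated at r = -0.132 for both same-numbered pairs. The deviations of 2 knockout arrays are exact opposites, so these values are not separate checks. With all 6 arrays, r was -0.0452, -0.0482 and 0.0368 for replicates 1, 2 and 3. The numbers of wild-type replicates 2 and 3 are uncertain, as given above. These values therefore cannot decide whether same-numbered mice were handled together. Figures used matplotlib 3.10.9.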

Additional observations from a re-analysis of the deposited data

How the results depend on the processing

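The count of 0 vesicle genes called higher and 0 lower on 5 arrays was the same without background correction, with cyclic loess, median scaling, other filters, a trended and robust variance, array weights, the authors' value table and any probe of a gene counted. Leaving out 1 wild-type mouse gave 0 higher and 0 lower. Both counts rose with knockout replicate 1 as the only knockout array, as given above, and so did those among all tested genes. On 6 arrays the counts were 0 and 0 in each setting except array weights, with 2 higher and 2 lower. The median over the vesicle genes was -0.67 with median scaling on 5 arrays, when that of all tested genes was -0.44, and -1.65 on 6 arrays, when it was -0.95. Leaving out 1 mouse moved it between -0.06 and -0.00 on 5 arrays and between -0.58 and -0.04 on 6. Relative to that shift of all genes, Preb at -0.26 and Tmed3 at 0.0037 stayed above the median gene, and Kdelr2 at -0.60 and Tmed9 at -0.57 went below it. Preb, Kdelr2 and Tmed9 were above 0 in the other settings tried on 5 arrays. Leaving out 1 mouse moved Arfgap3 between -0.24 and 0.068 (without knockout replicate 1) and Uso1 between -0.25 and 0.081 (without knockout replicate 2). The causes were not tested.

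With the replicate number as a block on 5 arrays, 0 of the 37 vesicle genes were called, against 0.115% of all tested genes higher and 0.249% lower, none of the 37 had an unadjusted p under 0.05, the median was -0.06 and 33 intervals excluded a 2-fold change. Intervals excluding it numbered 31 to 36 when 1 mouse was left out. Among the 96 other secretory pathway genes, 0 to 3 were higher and 0 to 7 lower when 1 mouse was left out, and 1 was lower without background correction, with a trended and robust variance and in the authors' value table (Tmed4 each time). Signal over background limits the 5 members too dim to test and the dim ones among those tested. The 2 knockout arrays limit all tested members.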
